A study of Mus musculus with 383 samples.

Results

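The genes described here encode the proteins that fuse vesicles with membranes: the SNAREs (the Vamp, Stx and Snap genes), the complexins (Cplx), the syntaxin-binding proteins (Stxbp), the synapsins (Syn) and the synaptotagmins (Syt). They were taken by symbol alone, as every probe set on the array that was annotated with a single gene of one of these families. This gave 133 of 45037 probe sets, for 55 of 18193 named genes. For each gene, the values below are those of its probe set with the highest mean over the cortex and thalamus arrays, unless other probe sets are named. The families held 7 Vamp genes, 14 syntaxins, 4 genes of the SNAP-25 family, 4 complexins, 6 syntaxin-binding proteins, 3 synapsins, 16 synaptotagmins and Snap91.

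All mice were F2 males, bred from 2 inbred strains: C57BL/6J was crossed with 129S1/SvImJ. They arrived at 4 weeks of age, went through a battery of behavioural tests from 7 weeks, and received EEG and EMG electrodes at 10 weeks. Sleep recordings covered an undisturbed baseline, the recovery from a 6 h sleep deprivation and the recovery from restraint lasting 1 h. Brains were collected at the age of 16 weeks, 6 to 7 h into the light phase. There were 98 cortex, 108 thalamus, 83 hippocampus and 94 hypothalamus arrays, from 117 mice that had all been through this schedule, so that no group was untreated. No treatment differed between the regions, and 91 mice had both cortex and thalamus. Hybridization batch went with region in the labels, however: of 3 cortex batches and 3 thalamus batches, 1 held both regions, with 14 cortex and 20 thalamus arrays, so that for the other arrays region and batch cannot be told apart. Within the shared batch the same number of genes of these families was called between the regions as over all arrays, 3 higher and 3 lower in cortex. The median difference over all probe sets was -0.1452 there and -0.1455 over all arrays. Batch effects within a region are all but absent from the deposited values, so this count cannot tell region from batch.

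A vesicle docks when its v-SNARE, a VAMP or synaptobrevin, zips up with a syntaxin and a SNAP-25 protein of the target membrane. Complexins clamp this complex and synaptotagmins release the clamp when calcium binds, while synapsins hold vesicles in reserve. Neurons draw on several paralogs for each step: Syt1, Syt2 and Syt9 are the fast calcium sensors of transmitter release, and Vamp1 and Syt2 are known from fast-firing projection neurons of the brainstem and spinal cord, where forebrain neurons use Vamp2 and Syt1.

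Markers of the dissected regions followed their labels. All 5 measured cortex markers were higher in cortex (limma adjusted p under 0.05 and a log2 difference of at least 1, the rule for all marker lists), and 5 of 6 thalamus markers were lower in cortex. The samples also held signal of neighbouring tissue: of the 7 markers of striatum, 6 were higher in cortex, where the list's mean log2 level ran from 9.62 to 11.2, against 7.65 to 8.2 in thalamus samples. All 7 markers of monoamine neurons of the midbrain and of glycine signalling in the hindbrain were lower in cortex samples. Their mean level was 4.66 to 5.34 there, against 8.41 to 9.42 in thalamus samples. Of further lists, 4 of 5 habenula markers (median difference -2.09) and 4 of 7 oligodendrocyte genes (-1.02) were lower in cortex. So were 2 of 6 astrocyte genes (-0.81), 2 of 8 genes of neurons in general (-0.57) and 2 of 5 genes of parvalbumin interneurons (-0.85). By the same rule, 0 genes of these lists were higher. The lists were not uniform. Pvalb was at -1.55 and Kcnc1 at -1.63, but Gad1 at -0.05 and Gad2 at -0.09. Among neuron genes Nefh was at -2.39 and Nefm at -1.35, but Rbfox3 at 0.53. The astrocyte gene Slc1a3 was at 0.83. The part of these lists in the results was not tested. The RNA integrity number had a median of 7.7 in cortex and 7.9 in thalamus. From bulk tissue, fewer cells of a type and less RNA per cell cannot be told apart.

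Hippocampus and hypothalamus are used here for differences between mice alone, because the deposited mean of a probe set in these regions is not on the scale of an expression level (769 and 335 probe sets lay outside 0 to 16, against 0 in cortex and 0 in thalamus). Levels are log2 probe set values and are not compared between genes, since each probe set binds with its own efficiency.

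The promoter stretches of the 6 genes that differed most between cortex and thalamus are shown first, because these genes moved as 2 groups of 3. RefSeq promoters (assembly GRCm38.p6) were found for 43 of the 55 genes. Each stretch is the 250 bases before the start annotated for that promoter, read 5′ to 3′ along the gene. For Syt2, Syt16 and Syt9 that start lies inside the span annotated for the gene. The stretch of Syt9 lies wholly within its gene, and those of Syt2 and Syt16 lie partly within theirs. Capitals mark matches on either strand to the 5 motifs searched: GGGCGG (the GC box), CAGCTG (one form of the E-box), TATAAA (the TATA box), TGACGTCA (the cyclic AMP response element) and TCAAGGTCA (the half-site of orphan nuclear receptors). The first 3 genes were lower in cortex and the last 3 were higher in cortex; Syt2 has 2 promoters in the table, of which the first is given.
Syt2 promoter (chr1:134646362-134646611, plus strand): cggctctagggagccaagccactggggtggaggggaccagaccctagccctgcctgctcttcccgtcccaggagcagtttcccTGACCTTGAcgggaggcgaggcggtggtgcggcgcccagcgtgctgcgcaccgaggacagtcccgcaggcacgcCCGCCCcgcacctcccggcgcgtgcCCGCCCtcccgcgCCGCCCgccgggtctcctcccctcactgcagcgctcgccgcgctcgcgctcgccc
Vamp1 promoter (chr6:125215331-125215580, plus strand): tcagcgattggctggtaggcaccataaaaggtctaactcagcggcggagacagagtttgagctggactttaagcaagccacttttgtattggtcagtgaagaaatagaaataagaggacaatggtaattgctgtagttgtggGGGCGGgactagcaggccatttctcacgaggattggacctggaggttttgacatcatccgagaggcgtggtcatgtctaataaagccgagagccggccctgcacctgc
Syt9 promoter (chr7:107370540-107370789, plus strand): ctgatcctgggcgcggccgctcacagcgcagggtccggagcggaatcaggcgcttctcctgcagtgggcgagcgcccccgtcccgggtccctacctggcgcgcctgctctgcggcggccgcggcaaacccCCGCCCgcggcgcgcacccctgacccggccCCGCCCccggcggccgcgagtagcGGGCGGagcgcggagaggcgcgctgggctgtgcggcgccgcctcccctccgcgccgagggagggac
Stx1a promoter (chr5:135023232-135023481, plus strand): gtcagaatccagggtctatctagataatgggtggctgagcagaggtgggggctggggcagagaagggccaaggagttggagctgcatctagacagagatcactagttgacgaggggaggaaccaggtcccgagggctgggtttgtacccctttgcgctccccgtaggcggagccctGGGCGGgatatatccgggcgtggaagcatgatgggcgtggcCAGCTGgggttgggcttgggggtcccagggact
Syt16 promoter (chr12:73997527-73997776, plus strand): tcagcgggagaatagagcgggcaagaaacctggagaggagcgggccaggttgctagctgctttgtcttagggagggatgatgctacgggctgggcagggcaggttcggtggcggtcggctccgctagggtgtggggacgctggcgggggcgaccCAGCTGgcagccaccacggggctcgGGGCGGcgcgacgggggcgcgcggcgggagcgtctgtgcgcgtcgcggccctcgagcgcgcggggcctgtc
Cplx3 promoter (chr9:57606282-57606531, minus strand): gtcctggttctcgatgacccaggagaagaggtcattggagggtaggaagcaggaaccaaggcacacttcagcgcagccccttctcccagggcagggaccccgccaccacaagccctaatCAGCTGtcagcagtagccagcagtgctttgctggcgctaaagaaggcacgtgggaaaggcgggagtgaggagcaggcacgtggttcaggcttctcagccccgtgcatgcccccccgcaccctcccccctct

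CAGCTG was present in the stretches of Stx1a, Syt16 and Cplx3 and in none of the other 3. It was in 15 of 55 promoters of these families (27.3%) and in 13% of all 32851 promoters of the same length. Of the other genes of these families with CAGCTG, Cplx2 (log2 difference 0.77) and Syt1 (0.40) were higher in cortex. Lower were Cplx1 (-0.68), Stx4a (-0.53), Stxbp5 (-0.43), Syt6 (-0.28), Stx12 (-0.23), Stx7 (-0.21) and Stx11 (-0.04). The split thus holds among the 6 chosen genes alone. GGGCGG was present in all of the printed stretches but that of Cplx3, with 3 matches each in Syt2 and Syt9, and was in 58.2% of the family's promoters, against 32.7% of all promoters. TCAAGGTCA occurred once among the family's promoters, in the Syt2 stretch on the minus strand, and in 0.387% of all promoters. TATAAA and TGACGTCA were in none of the 6 stretches, in 3.64% each of the family's promoters, and in 12.4% and 1.55% of all promoters. The matches did not overlap each other, and they describe letters, not bound sites. The stretch of Syt9 had the highest G and C content, at 80.4%, and that of Vamp1 the lowest, at 50.4%. The median was 61.2% over the family's promoters and 52.4% over all promoters. GGGCGG is itself all G and C, and whether its share exceeds what this content gives was not tested.

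Of the 55 genes, Stx1a, Syt16 and Cplx3 were higher in cortex and Syt2, Vamp1 and Syt9 were lower in cortex, called at an adjusted p under 0.05 in limma over all probe sets and a log2 difference of at least 1. That is 6 of 55 genes, where 5.51% of all probe sets and 6.65% of all genes were called (2.34% higher and 4.31% lower in cortex), so the number called was not far from the background. With a minimum of 0.5, 5 genes were higher and 12 were lower in cortex, against 6.07% and 20.3% of all genes. In 13 genes (23.6%) no cortex array overlapped a thalamus array, 4 of them higher and 9 lower in cortex, against 12.7% of all genes.

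The scale of the 2 regions bears on small differences. Over all probe sets, the median of cortex minus thalamus was -0.15 as deposited, -0.02 once the arrays of both regions were quantile normalized together and 0.01 once each array was centred on its median. The median of the 55 genes was -0.23, where that of all genes was -0.20, and became -0.09 and -0.08 under these scalings, where that of all genes became -0.06 and -0.04. The 6 called genes kept their direction and their call under both scalings, and Syt5 was added to them. Stx2, Stx5a, Stx11, Syt4, Syt7, Syt8 and Syt12 changed sign, each with a deposited difference of less than 0.1 in size.

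**Figure D1:**
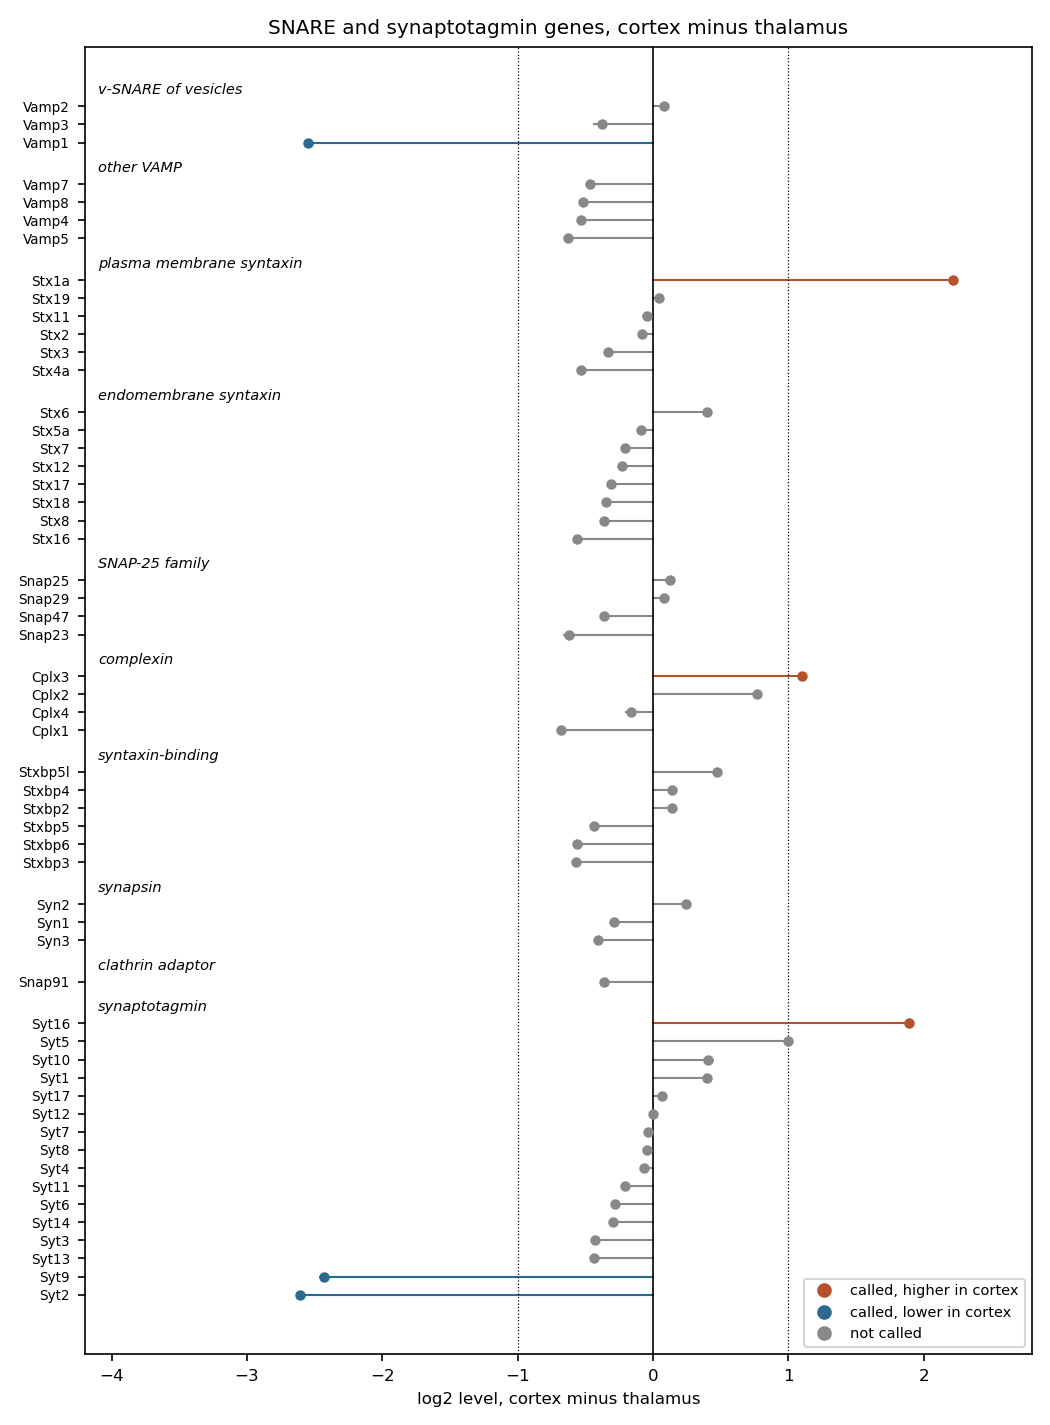
Log2 difference, cortex minus thalamus, of the 55 genes, grouped by role (points, with bars of 1 SE from limma over 98 cortex and 108 thalamus arrays; dotted lines at -1 and 1). Vamp1, Syt2 and Syt9 lie beyond -2, Stx1a beyond 2, and most other genes lie within 0.6 of 0.

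Among the v-SNAREs, Vamp1 and Vamp2 did not move together. Vamp1, synaptobrevin-1, had log2 levels with a lowest value of 9.90, a median of 10.23 and a highest of 10.61 in cortex, against 12.52, 12.78 and 13.01 in thalamus. No cortex array reached the lowest thalamus array, and the level was lower in cortex in 91 of 91 mice. The difference was -2.55 ± 0.02 (SE; limma adjusted p = 1.93e-219), or 5.84-fold lower in cortex, and its other probe set gave -2.25. Vamp2, synaptobrevin-2 and the main v-SNARE of forebrain synapses, ranged from 11.46 to 12.13 in cortex (median 11.75) and from 11.25 to 11.99 in thalamus (median 11.71). The ranges of Vamp2 overlapped almost wholly, and the difference was 0.08 ± 0.02, with -0.16 in its other probe set. Vamp3, cellubrevin of recycling endosomes in most cell types, differed by -0.38 ± 0.07, with wide ranges in both regions (7.89 to 10.09 and 8.44 to 10.43).

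The other VAMPs, which serve the trans-Golgi network (Vamp4), muscle (Vamp5) and late endosomes and lysosomes (Vamp7 and Vamp8), differed by -0.63 to -0.47, all 4 below 0 and none past the minimum. Of all genes, 73.1% were below 0 in the deposited values. In Vamp4 the cortex arrays, at 10.28 to 10.71, all lay below the thalamus arrays, at 10.84 to 11.22. Over its probe sets, however, the Vamp4 difference ran from -0.53 to 0.02.

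Stx1a, the neuronal plasma membrane syntaxin, was the gene of these families with the largest excess in cortex. Its levels ran from 11.78 over a median of 12.08 to 12.48 in cortex and from 9.51 over 9.89 to 10.17 in thalamus. The groups were far apart, and the level was higher in cortex in 91 of 91 mice. The difference was 2.22 ± 0.02 (limma adjusted p = 1.24e-197), a 4.66-fold higher level in cortex, and the second Stx1a probe set gave 2.25. The other plasma membrane syntaxins ranged from -0.53 in Stx4a, which serves constitutive exocytosis, to 0.04 in Stx19. Of the 8 syntaxins of internal membranes, 7 were below 0, as were 73.1% of all genes, and Stx6, of the trans-Golgi network, was at 0.40 ± 0.02. Among the 7, another probe set of Stx8 gave 0.225. Stx16, which works with Stx6, stood at -0.56 ± 0.01 with no overlap between arrays.

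Snap25, the partner of Stx1a at neuronal plasma membranes, was nearly even between the regions, with levels of 13.65 to 14.03 in cortex (median 13.89) and 13.53 to 13.95 in thalamus (median 13.76). The arrays overlapped, and the difference was 0.12 ± 0.01. Its second probe set gave 0.52. The broadly expressed relatives Snap23, Snap29 and Snap47 differed by -0.62 ± 0.04, 0.08 ± 0.04 and -0.37 ± 0.01. Snap91, the clathrin adaptor AP180 that is involved in vesicle recovery, had a difference of -0.36 ± 0.01 in one probe set and 0.19 in the other.

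Complexins split between the regions. Cplx3, a complexin of ribbon synapses that is also known from deep cortical layers, had levels of 6.89, 7.69 and 8.16 (lowest, median and highest) in cortex, against 5.71, 6.58 and 7.00 in thalamus. Arrays of both regions met only at the edges, and the level was higher in cortex in 91 of 91 mice. The difference was 1.10 ± 0.03 (limma adjusted p = 4.24e-81), from the single probe set of Cplx3. Cplx2 was at 11.36 to 11.90 in cortex (median 11.62) and 10.68 to 11.09 in thalamus (median 10.85), while Cplx1 was at 12.84 to 13.33 in cortex (median 13.10) and 13.60 to 13.96 in thalamus (median 13.78). Neither gene's arrays overlapped between regions, and the differences of 0.77 ± 0.01 and -0.68 ± 0.01 were under the minimum. One further probe set of each passed it in the same direction, at 1.61 for Cplx2 and -1.23 for Cplx1. Cplx4, the second complexin of ribbon synapses, differed by -0.17 ± 0.04.

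None of the 6 syntaxin-binding genes was called. Stxbp5l (tomosyn-2) differed by 0.47 ± 0.01 and its paralog Stxbp5 (tomosyn-1) by -0.43 ± 0.01, both of which bind syntaxin and SNAP-25 in place of a VAMP; a further Stxbp5 probe set gave 0.98, the opposite sign. Stxbp3 and Stxbp6 (amisyn) stood at -0.57 ± 0.02 and -0.56 ± 0.01. Among the synapsins, which coat vesicles, Syn2 differed by 0.24 ± 0.01, Syn1 by -0.29 ± 0.02 and Syn3 by -0.41 ± 0.02, all with overlapping arrays.

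The synaptotagmins held 3 of the called genes. Syt2, the fast calcium sensor of brainstem and spinal synapses, had levels of 7.18, 7.90 and 8.74 in cortex, against 9.99, 10.52 and 11.02 in thalamus. The groups were separate, and the level was lower in cortex in 91 of 91 mice. The difference was -2.61 ± 0.03 (limma adjusted p = 7.91e-159), or 6.09-fold lower in cortex, and the other Syt2 probe sets gave -1.32 and -0.96. Syt9, a fast sensor known from striatal and limbic synapses, had levels of 6.54, 7.29 and 7.83 in cortex, against 8.93, 9.71 and 10.18 in thalamus. These groups were separate as well, in 91 of 91 mice, and the difference was -2.43 ± 0.03 (adjusted p = 1.35e-155), or 5.4-fold lower in cortex. Syt9 had a single probe set.

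Syt16, a member whose C2 domains are not known to bind calcium, had levels of 9.87, 10.13 and 10.60 in cortex, against 7.84, 8.27 and 8.96 in thalamus. The arrays of the regions were separate, and the difference was 1.89 ± 0.03 (limma adjusted p = 3.12e-152), a 3.7-fold higher level in cortex. Syt16 had a single probe set. Syt5 was just under the minimum at 1.00 ± 0.02 (9.10 to 9.74 in cortex and 7.91 to 8.76 in thalamus, with no overlap). It was past the minimum after quantile normalization, at 1.16, and after median centring, at 1.15.

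Syt1, the main calcium sensor of forebrain synapses, ran from 12.90 to 13.46 in cortex (median 13.18) and from 12.43 to 13.14 in thalamus (median 12.79). The ranges overlapped in part, and the difference was 0.40 ± 0.02 in this probe set. The other 3 Syt1 probe sets were called higher in cortex, at 1.20, 1.47 and 1.66, so the size for Syt1 differed between its probe sets. Syt7, the slow high-affinity sensor, differed by -0.04 ± 0.02, with 0.13 after quantile normalization. The other 10 synaptotagmins lay between -0.44 in Syt13 and 0.41 in Syt10. Over all the families, 12 of 38 genes with several probe sets had probe sets of both signs. They included Vamp2, Vamp4, Stx8, Snap91, Stxbp5, Syt4, Syt7 and Syt13.

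**Figure D2:**
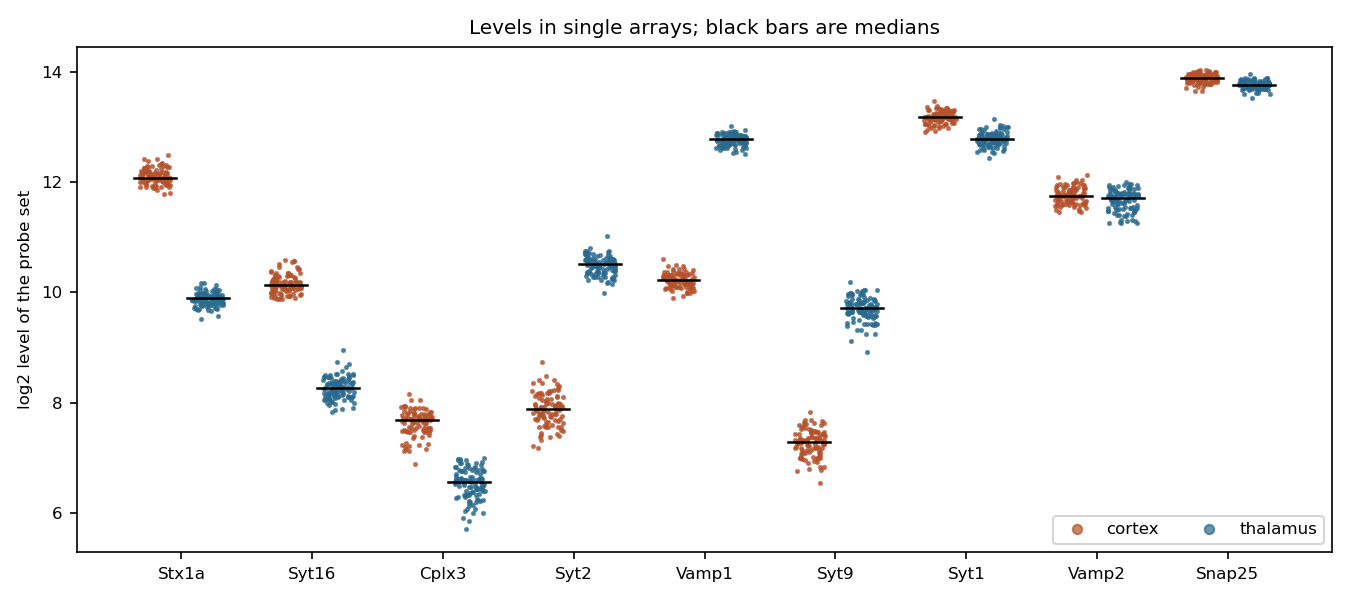
Log2 level in every cortex array (left of each pair) and thalamus array (right) for the 6 called genes and for Syt1, Vamp2 and Snap25, with black bars at the median. The arrays of the regions are separate for Stx1a, Syt16, Syt2, Vamp1 and Syt9, meet at the edge for Cplx3, and overlap for Syt1, Vamp2 and Snap25.

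Tissue around the dissected regions moved with some of these levels among arrays of 1 region, in 18 tests of a gene against the mean level of a marker list with p-values adjusted over them (permutation tests, 100000 resamples; the genes were chosen after their values were seen). In thalamus, Vamp1 and Syt2 were higher in arrays with more of the midbrain and hindbrain list (r = 0.43, rho = 0.41, adjusted p = 3.6e-05, and r = 0.39, rho = 0.37, adjusted p = 0.00015), while Syt9 was lower (r = -0.26, rho = -0.30, adjusted p = 0.012). In cortex, Stx1a was lower in arrays with more of the striatum list (r = -0.69, rho = -0.70, adjusted p = 3.6e-05). Syt16 (r = 0.01, adjusted p = 0.983), Syt9 (r = 0.00, adjusted p = 0.983) and Cplx3 (r = -0.19, adjusted p = 0.093) showed no such relation past the threshold. Syt2 and Vamp1 in cortex rose with genes of parvalbumin interneurons, at r = 0.51 and 0.49 (rho = 0.49 and 0.50, adjusted p = 3.6e-05 each). Both genes and the parvalbumin list were lower in cortex than in thalamus. The parts of these tissues in the differences between regions were not tested.

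Of 43 further genes of the release machinery, 42 were measured, 5 were higher in cortex and 2 were lower in cortex by the same limma rule, where 2.34% of all genes were higher and 4.31% lower. The vesicle proteins Sv2b and Synpr were higher in cortex at 1.48 ± 0.02 and 1.26 ± 0.02, as were the active zone scaffolds Pclo at 1.23 ± 0.02 and Erc2 at 1.23 ± 0.01 and the priming factor Unc13a at 1.03 ± 0.02. Lower in cortex were the active zone gene Rims3 at -1.32 ± 0.02 and the priming factor Unc13c at -1.16 ± 0.04. In all 7 the arrays of the regions did not overlap. The median over the list was -0.14.

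To compare paralogs without a scale common to an array, the log2 ratio of 2 paralogs was taken within each array. It was then compared between cortex and thalamus of the same mouse. A shift of a single probe set in a region would stay in this ratio, and was not tested. The ratio shows unequal change, not which paralog is more abundant. Syt1 over Syt2 was higher in cortex by 3.02 ± 0.38 (SD, n = 91 mice, above 0 in 91), and Vamp2 over Vamp1 by 2.64 ± 0.24 (n = 91, above 0 in 91). Cplx2 over Cplx1 was higher by 1.45 ± 0.15 (n = 90, above 0 in 90). The first 2 ratios moved 8.12-fold and 6.21-fold, and the complexins moved in opposite directions. For Syt1 over Syt2 the share of each gene differs with the probe set: those used were at 0.40 for Syt1 and -2.61 for Syt2, while the others were at 1.20 to 1.66 for Syt1 and at -1.32 and -0.96 for Syt2.

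The other ratios were smaller. Stxbp5 over Stxbp5l was lower in cortex by -0.91 ± 0.18 (n = 91, below 0 in 91), and Syn1 over Syn2 by -0.53 ± 0.18 (n = 89, below 0 in 89). Both sizes rest on the probe sets used: with the mean of all probe sets of a gene they were -0.10 and -0.31. One Stxbp5 probe set, at 0.98, was above those of Stxbp5l, at 0.26 to 0.73, and one Syn2 probe set, at -0.28, was level with the single one of Syn1, at -0.29. Syt6 over Syt10 was lower by -0.66 ± 0.50, with 82 of 91 mice below 0. The levels of Syt10 were low, with medians of 5.29 in cortex and 4.87 in thalamus. A low level was not told from an absent one, so this ratio may not reflect both genes. Syt4 over Syt11, a pair of synaptotagmins with weak calcium binding, was higher by 0.14 ± 0.14, above 0 in 74 of 90 mice, and by 0.65 with the mean of all probe sets. In each of the 7 pairs the sign-flip permutation test over mice gave 1e-05, the smallest value that 100000 resamples can give, also after adjustment over the pairs. This is not particular to paralogs: 88.6% of all genes differed between the regions at a limma adjusted p under 0.05. Ratios of other pairs of genes were not taken for comparison.

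**Figure D3:**
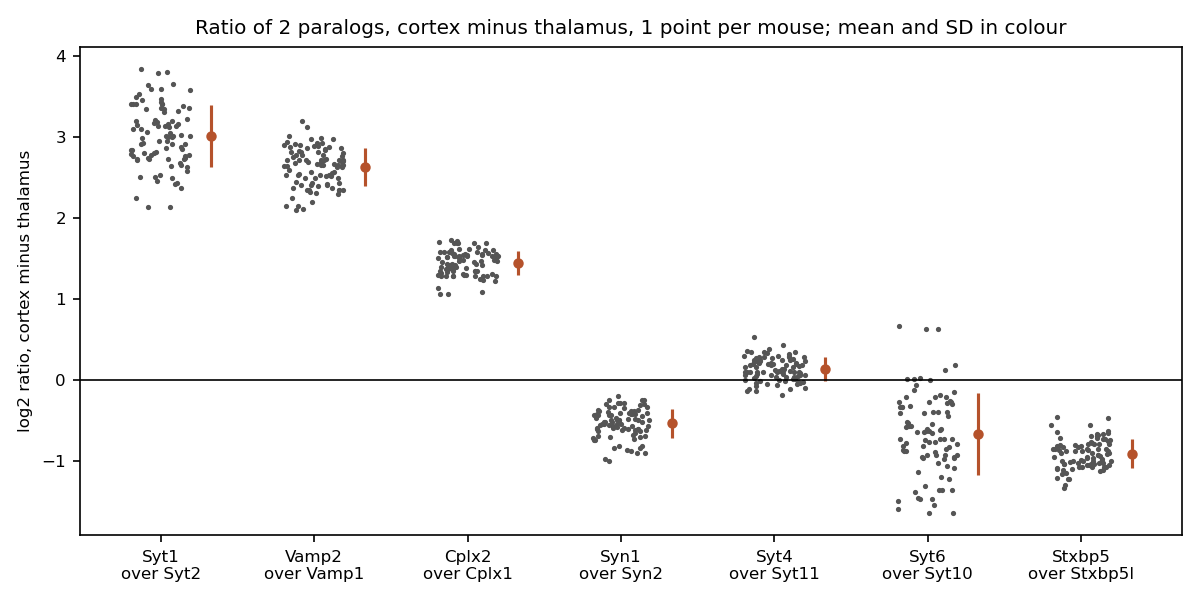
Difference in the log2 ratio of 2 paralogs, cortex minus thalamus, with 1 grey point per mouse and the mean with 1 SD in colour. All mice lie above 0 for Syt1 over Syt2, Vamp2 over Vamp1 and Cplx2 over Cplx1, and below 0 for Syn1 over Syn2 and Stxbp5 over Stxbp5l.

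Across mice, strongly correlated pairs made up a larger share of the pairs within these families than of all pairs of genes, although the typical pair was not correlated: the median r over the 1485 pairs of the 55 genes was 0.01 in cortex. An absolute r of at least 0.3 was reached by 92 pairs (6.2%) in cortex, against 2.68% of all pairs of genes, and by 37 (2.49%) in thalamus, against 0.819%. In hippocampus 116 pairs (7.81%) reached it, against 2.86%, and in hypothalamus 55 (3.7%), against 1.64%. With 5 principal components removed, the counts were 47 (3.16%) in cortex, against 1.03% of all pairs, 25 (1.68%) in thalamus, against 0.719%, 52 (3.5%) in hippocampus, against 2.12%, and 40 (2.69%) in hypothalamus, against 1.22%. No test of this excess was made, and pairs share their genes. No pair reached 0.3 in all 4 regions, 5 did in 3 regions, 39 in 2 and 207 in 1. These counts disregard the sign of r, which can differ between regions. Among the 5, Stxbp3 and Syt2 stood at 0.35 in cortex and 0.30 in hippocampus, but at -0.325 in hypothalamus. With p-values from 100000 permutations of the arrays, adjusted over the 1485 pairs of a region, 98 pairs passed 0.05 in cortex (71 positive) and 34 in thalamus (18 positive), and the numbers were 95 for hippocampus (52 positive) and 32 for hypothalamus (26 positive).

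In cortex the strongest pair was Stx1a and Syn1, with r = 0.67 over 98 arrays (rho = 0.63, permutation adjusted p = 0.00099, r = 0.64 without the 2 arrays farthest from the median of Stx1a). Syn1 fell with the striatum list as Stx1a did (r = -0.63, rho = -0.59, adjusted p = 3.6e-05), and with that list removed from both genes their r was 0.43. Snap47 and Snap91 followed at r = 0.55, Syn2 and Syt7 at 0.53, and Stxbp6 and Vamp2 at 0.51. With the striatum list removed these were 0.49, 0.39 and 0.32. The lowest values were those of Cplx2 with Stx12 and of Syt11 with Vamp7, both at -0.44.

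In hippocampus the strongest pair was Syt2 and Vamp1, with r = 0.73 over 83 arrays (rho = 0.70, permutation adjusted p = 0.00106, r = 0.70 without the 2 farthest arrays), and Cplx1 rose with Vamp1 at 0.61 and with Syt1 at 0.54. The next pair was Stx6 and Syt7, at 0.53. Syt9 ran against them, at -0.61 with Vamp1 and -0.51 with Syt2, although Syt9 and these genes all were lower in cortex than in thalamus. Syt9 rose with the thalamus list among hippocampus arrays (r = 0.39, rho = 0.39, adjusted p = 0.000771), whereas Syt2 (r = 0.03, adjusted p = 0.909) and Vamp1 (r = -0.01, adjusted p = 0.983) did not pass the threshold. With that list removed, the r of Syt2 and Vamp1 was 0.73 and that of Syt9 and Vamp1 was -0.66.

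Syt2 and Vamp1 were also tied in cortex (r = 0.45) and thalamus (r = 0.45), and stood at 0.11 in hypothalamus. The difference between regions was not tested. In hypothalamus the strongest pairs were Cplx2 and Syt2 (r = 0.53 over 94 arrays, permutation adjusted p = 0.00297), Cplx1 and Cplx2 (0.50), Cplx1 and Syt2 (0.47) and Cplx1 and Vamp1 (0.45), with Cplx1 and Syt5 lowest at -0.42 and Syt5 and Vamp1 next at -0.40. In thalamus Syn3 and Syt2 led with r = 0.58 over 108 arrays (permutation adjusted p = 0.00186, and 0.54 with the midbrain and hindbrain list removed). Syt9 followed with Syt13 at 0.51 and with Syt7 at 0.49, and Stx1a and Syt2 were lowest at -0.45, followed by Snap47 and Vamp8 at -0.43. Stx1a and Syt7 reached 0.3 in cortex (0.46), hippocampus (0.36) and thalamus (0.47), and stood at 0.25 in hypothalamus.

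**Figure D4:**
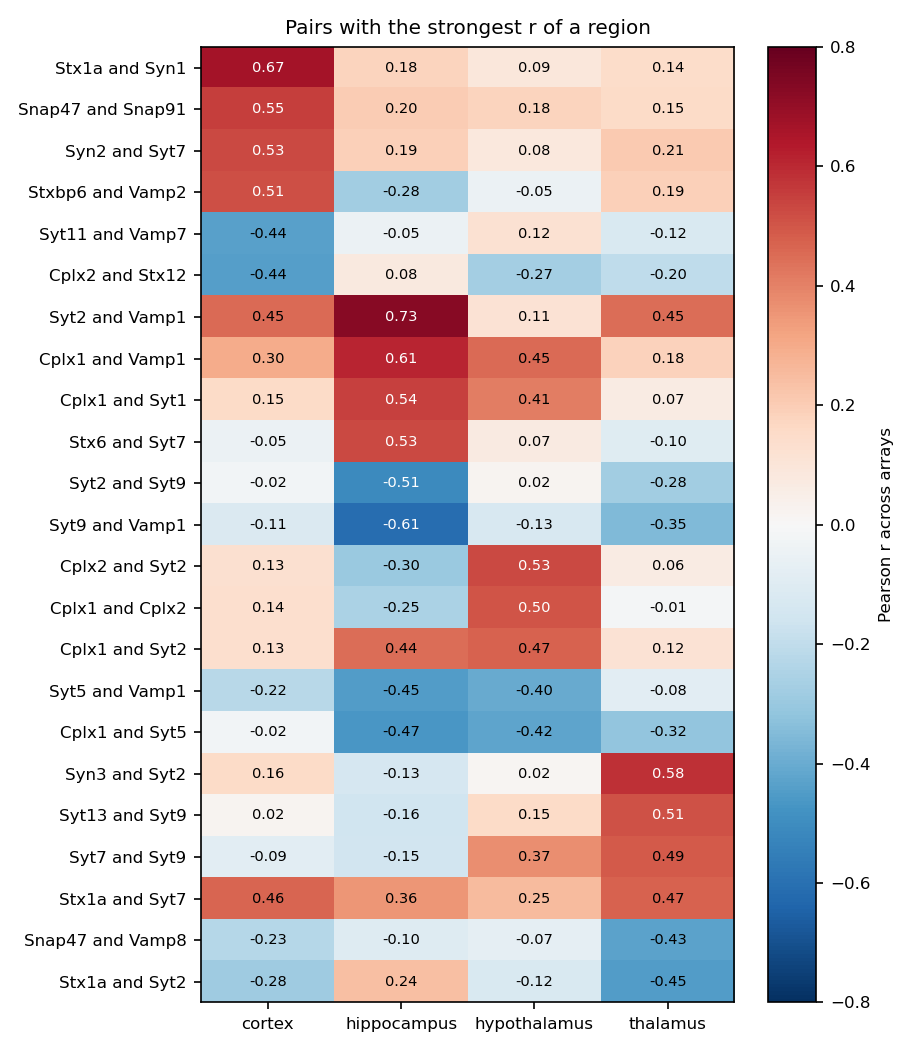
Pearson r across arrays in each of the 4 regions for the pairs with the 4 highest and the 2 lowest values of a region. Syt2 with Vamp1 is positive in all 4 regions, at 0.11 in hypothalamus. Several other pairs are positive in all 4 as well, among them Cplx1 with Vamp1 and Stx1a with Syt7. Most pairs are strong in 1 region alone.

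The 7 paralog pairs gave 28 such tests, adjusted over the 28. Syn1 and Syn2 rose together in cortex (r = 0.51, rho = 0.48, permutation adjusted p = 9.33e-05) and in hippocampus (r = 0.50, rho = 0.50, adjusted p = 9.33e-05). Cplx1 and Cplx2 did so in hypothalamus (r = 0.51, adjusted p = 9.33e-05) and stood at -0.25 in hippocampus (adjusted p = 0.0714). Syt4 and Syt11 rose together in hippocampus (r = 0.37, rho = 0.35, adjusted p = 0.00406), as did Syt1 and Syt2 there (r = 0.28, adjusted p = 0.0486, and 0.0526 by Spearman) and in hypothalamus (r = 0.28, adjusted p = 0.0409, and 0.127 by Spearman). Vamp1 and Vamp2, at -0.21 to 0.01, passed the threshold in none of the 4 regions, and in thalamus none of the 7 pairs passed it. No pair had a negative r past the threshold in any of the 28 tests.

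Snap25, the SNARE that the synaptic partners share, was set against every other gene within each region. In cortex, Stx1a rose with Snap25 by 0.05 ± 0.01 log2 per SD of Snap25 (limma adjusted p = 0.0185) and Stx8, an endosomal syntaxin, fell by -0.05 ± 0.01 (adjusted p = 0.0243), where 0.635% of all probe sets were called. In the 78 arrays of the largest hybridization batch Stx1a was at 0.05 ± 0.01 and not called (adjusted p = 0.113). In thalamus Vamp1 rose by 0.03 ± 0.01 (limma adjusted p = 0.0353, with 0.64% of probe sets called). That call was lost with the first principal component as a covariate (0.02 ± 0.01, adjusted p = 0.254) and in the 86 arrays of the largest batch (0.03 ± 0.01, adjusted p = 0.119). Counted by gene, 10 of 54 (18.5%) had an unadjusted p under 0.05 in cortex, against 13.2% of all genes. In thalamus 8 (14.8%) had one, against 13.1%. In hippocampus and hypothalamus 0 of 54 genes were called, with 8 (14.8%) and 11 (20.4%) at an unadjusted p under 0.05, against 11.5% and 10.8% of all genes at that threshold. By adjusted p, limma called 0.0311% and 0.0688% of probe sets there. The next highest were Syn1, Stx6 and Snap23 in cortex, Vamp4, Vamp1, Snap91 and Syt2 in hippocampus, Syt11, Vamp2, Syt13 and Stx16 in hypothalamus, and Stx17, Syn1 and Cplx1 in thalamus. At the low end were Vamp3, Stx18 and Vamp4 in cortex, Syt9, Stx8, Vamp8 and Cplx4 in hippocampus, Stxbp5l, Vamp8, Syt4 and Cplx4 in hypothalamus, and Stx1a, Stx6, Vamp8 and Stx12 in thalamus. None of these passed the threshold, with Syt11 nearest (0.03 ± 0.01, adjusted p = 0.07).

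With Syt1 in place of Snap25, more genes were called. The covariate and batch alternatives run for Snap25 were not run for Syt1. In cortex 7 rose (Syn1, Stx1a, Snap91, Syt5, Vamp2, Stxbp6 and Syt13), led by Syn1 at 0.08 ± 0.01 (limma adjusted p = 2.2e-05), where 3.44% of probe sets were called. Syn1 and Stx1a were also lower in cortex arrays with more of the striatum list (r = -0.63 and -0.69), against which the others were not set. In hippocampus Cplx1 (0.06 ± 0.01, adjusted p = 0.00013) and Vamp1 rose and Syt7, Syn3, Stx6 and Syt5 fell, against 4.21% of probe sets. In hypothalamus Cplx1 and Cplx2 rose, against 0.888%, and in thalamus Syt7 (0.05 ± 0.01, adjusted p = 0.000939) and Syn1 rose, against 1.42%. Syt7 thus fell with Syt1 in hippocampus (-0.07 ± 0.01) and rose with it in thalamus. The difference between these slopes was not tested. Counted by gene, 19 of 54 (35.2%) had an unadjusted p under 0.05 in cortex, against 17.4% of all genes. In hippocampus 17 (31.5%) had one, against 19.8%, in hypothalamus 12 (22.2%), against 14.4%, and in thalamus 14 (25.9%), against 13.4%.

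Levels of the same mouse were next compared between regions. Called at an adjusted p under 0.05 over all probe sets from pooled permutations, 2 of 55 genes correlated between cortex and hippocampus, 4 between cortex and hypothalamus, 4 between cortex and thalamus, 6 between hippocampus and hypothalamus, 2 between hippocampus and thalamus and 5 between hypothalamus and thalamus, all positively. The shares of all genes called were 6.11%, 7.4%, 9.73%, 8.88%, 6.28% and 8.93% in the same order, so that these families were near or below the background in most pairs. In 47 genes no pair of regions was called. Vamp3 and Stxbp2 were called in all 6 pairs, as were 3.24% of all genes.

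Vamp3 had r between 0.80 and 0.87 over the 6 pairs (67 to 89 mice, rho 0.61 to 0.83, permutation adjusted p at most 1.09e-05). Between cortex and thalamus r was 0.87 over 89 mice, and also 0.87 without the 2 mice farthest from the median. Vamp3 had the widest spread among these genes, with an SD of 0.51 in cortex and 0.47 in thalamus, above that of 99.2% and 98.7% of all genes. The 5 Vamp3 probe sets differed: the one used was called in 6 pairs with a median r of 0.85, a second in 5 pairs with a median r of 0.39, and the remaining 3 in 1, 1 and 0 pairs with median r of 0.13, 0.09 and 0.06.

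Stxbp2 (Munc18-2), the syntaxin-binding protein of secretory granules in blood and epithelial cells, had r between 0.43 and 0.78 (67 to 91 mice, rho 0.42 to 0.79, permutation adjusted p at most 6e-05). All 3 of its probe sets were called in all 6 pairs, with median r of 0.51, 0.57 and 0.71. Its highest r was between hippocampus and hypothalamus. Vamp2 and Snap23 were called in 3 pairs each, with Vamp2 at r = 0.52 between cortex and thalamus, Stx7 in 2, and Stxbp4, Syt16 and Syt17 in 1. The genes that set cortex apart from thalamus were otherwise not called: Stx1a, Cplx3, Syt2, Vamp1 and Syt9 passed in none of the 6 pairs.

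**Figure D5:**
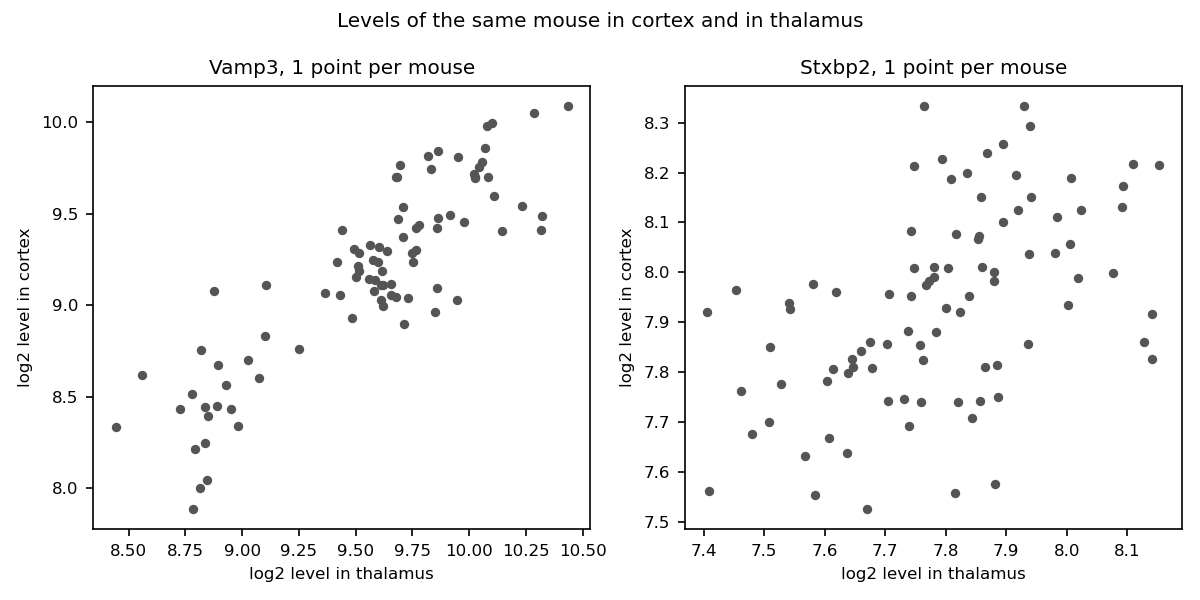
Log2 level in cortex against log2 level in thalamus of the same mouse for Vamp3 (89 mice) and Stxbp2 (91 mice). Both genes rise together in the regions, with r = 0.87 for Vamp3 and r = 0.50 for Stxbp2.

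Sleep of the mice was set against the same genes in 16 comparisons, of 4 traits (baseline NREM and REM amount, and NREM delta power at baseline and in recovery from deprivation) in each region, over 78 to 102 arrays. None of the 880 tests of these genes was called by limma, and 75 (8.52%) had an unadjusted p under 0.05, against 4.57% to 9.7% of all probe sets over the comparisons. Among all probe sets, 0% were called in 12 comparisons, 0.00222% for REM amount in cortex, 0.00444% for REM amount in hypothalamus and for recovery delta power in thalamus, and 0.00888% for recovery delta power in hippocampus. The lowest adjusted p was 0.298, for Syn1 and REM amount in hypothalamus (0.02 ± 0.01 log2 per SD). The largest count was 9 of 55 genes at an unadjusted p under 0.05, for NREM amount in cortex, where 6.24% of probe sets had one; Stx7 was lowest at 0.000758 (adjusted p = 0.55).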

How the data were processed

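Total RNA extracted with Trizol from 4 brain regions was hybridized to Affymetrix arrays, 1 array per mouse and region. The authors' deposited values are on a log2 scale, and affy and RMA are the tools that the submitters' processing notes name, without versions. As the values show, the regions had been scaled apart and effects of cohort and hybridization batch are all but absent: an F test within a region had p under 0.05 in 0% to 0.00515% of probe sets for cohort and in 0.00524% to 3.31% for batch, fewer than chance gives. Differences between batches may have been taken out before deposit, which can make p-values too small, and no batch term was fitted; arrays give no count depth, and their number limits the precision. Sleep traits were used in the units of the authors' deposited trait table, and were standardised.

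The members and gene lists were chosen with earlier results of these data known. Genes were named by the platform annotation, and the 55 genes matched the RefSeq table of GRCm38.p6. Missing values (0.192% of the members' values) were left out of the limma fits and of single tests, and set to the region's mean of the probe set in correlations over all genes. Cortex and thalamus arrays alone entered the comparison of levels (lmFit with eBayes of limma 3.58.1, run in R 4.3.3, with Benjamini-Hochberg adjustment over 45037 probe sets; called at adjusted p under 0.05 and a log2 difference of at least 1). Arrays of the same mouse carry its number, which pairs them; their consensus correlation was 0.0531, and the fits with the mouse as a block are in the closing section. Slopes on Snap25, Syt1 and sleep traits were fitted in limma within each region. Correlations between regions took p-values from 100 permutations of mice pooled over all probe sets, and single correlations from 100000 permutations (numpy 2.4.6 in Python 3.11.15). The genes named are all called genes, a core of neuronal release genes, the genes called in all 6 pairs of regions, and the 4 highest and 4 lowest slopes on Snap25, ranked by slope over its error; the pairs of genes named are the 4 highest and 2 lowest of a region, a choice made after the values were seen. The scripts recovered known changes when tested on simulated data.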

Additional observations from a re-analysis of the deposited data

How the results depend on the processing

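For cortex against thalamus, 3 genes higher and 3 lower in cortex were called in the deposited values. The counts were the same with the mouse as a replicate block (3 and 3) and with differences paired within mice (3 and 3). They were also the same with 1 mean per region over all 4 regions and in the 1 hybridization batch that held both regions (14 and 20 arrays). Leaving out arrays of RIN under 7, or the 33.3% of probe sets with the lowest means, gave these counts as well. Quantile normalization and median centring gave 4 and 3. A minimum of 0.5 gave 17 genes and no minimum 51 of 55 (16 higher, 35 lower), where 88.6% of all genes passed. Counting a gene when any of its probe sets was called gave 9, adding Cplx1, Cplx2 and Syt1. Syt7 reversed sign, to 0.13 after quantile normalization and 0.12 after median centring. The 7 paralog ratios kept their direction and their side of the threshold under the 5 alternatives run, no replicate block among them.

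The 2 slopes on Snap25 in cortex became 1 in the batch with most arrays, and with Syt1 as the anchor there were 7. The Vamp1 slope in thalamus was lost with the first principal component as a covariate and in the batch with most arrays (0 called each), and with Syt1 as the anchor 2 were called. In hippocampus and hypothalamus, 6 and 2 were called with Syt1. Between regions, removing 5 principal components left 1 gene for cortex and hippocampus and 2 for hypothalamus and thalamus. Counting any probe set gave 4 for cortex and hippocampus, 7 for thalamus paired with cortex, 7 for hypothalamus paired with cortex, and 6 for thalamus paired with hippocampus. Pairs of genes with an absolute r of at least 0.3 fell to 47 in cortex and 52 in hippocampus with 5 principal components removed, an alternative chosen after seeing the data. The cause was not tested. Of the remaining alternatives, 103 main counts or ratios and 126 values of single genes kept their direction and stayed within 1.5 times of their count or on their side of the threshold. Probe set signal over background was not analysed here, so that a low level such as that of Cplx4, Stx11 or Syt10 is not told from an absent one.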
